A study of Mus musculus with 5 samples.

Results

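The 10 genes described here encode 3 cytokines and 7 receptor chains of the gp130 family and of the IL4 and IL13 system in the mouse mammary gland. They were chosen by name, and all 10 are among the 22609 genes of the deposited table: the ligand genes Lif, Osm and Il6, the gp130 family receptor genes Il6st, Lifr, Osmr, Il6ra and Il11ra1, and the IL4 and IL13 receptor genes Il4ra and Il13ra1. The series profiled poly(A) RNA of mammary gland with the lymph nodes taken out, from outbred mice less than 12 hours after they gave birth. It has 3 libraries labelled Nfib-null (KO) and 2 labelled wild type, and it asks how nuclear factor I/B (NFIB), a DNA-binding transcription factor, shares control of pregnancy-induced genes with STAT5, the transcription factor activated by prolactin. The labels do not give the Cre driver or the kind of cell in which Nfib was deleted, nor how many animals a library came from. The table has a single value a gene for each group, in RPKM (reads per kilobase of transcript, corrected for library depth), so no spread between libraries can be given and no test could be run. The labels do not explain the name of the Nfib-null column. It was taken as the one left after the wild-type column had been recognised by its name. The repeating digits of its values, described under processing, go with a mean over 3 libraries. Every direction below rests on this assignment of the columns.

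The cytokines LIF, oncostatin M, IL6 and IL11 all signal through gp130, the product of Il6st. Each uses a ligand-specific partner: LIFR for LIF, OSMR for mouse oncostatin M, and the binding chains encoded by Il6ra and Il11ra1 for IL6 and IL11. These complexes activate Janus kinases and, above all, STAT3. In the mouse mammary gland LIF and STAT3 are known for starting the death of milk-producing cells once suckling stops, and oncostatin M for acting through OSMR later in that regression. IL4 binds the chain encoded by Il4ra, which pairs either with the common gamma chain (Il2rg) or with the chain encoded by Il13ra1, and the pair with Il13ra1 also receives IL13. Both pairs activate STAT6, which in mouse luminal cells takes part in alveolar development during pregnancy.

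The promoter sequences of these genes were inspected for the elements that STAT and NFI proteins bind, because the study concerns those factors. RefSeq windows of 300 bases on GRCm38.p6, running 250 bases upstream and 50 downstream of a start site, were found for 9 of the 10 genes, in 11 windows. No window held TTCNNNGAA, the element of STAT3 and STAT5, which 8.30% of 32851 windows of the same length held, and none held the STAT6 element, TTC and GAA with 4 bases between them (6.95% of windows), or the full NFI palindrome, TTGGC and GCCAA with 5 bases between them (0.0365%). One arm of that palindrome, TTGGC or its reverse complement GCCAA, stood in 7 of the 11 windows against 46.7% of windows overall. Both strands were read for every element, and TTGGC is itself an arm of the full palindrome. The windows of the common chain, of the ligand Lif, and of the partner chains whose RNA levels went opposite ways are shown 5′ to 3′, with TTGGC or GCCAA in capitals and without the bases after the first annotated coding transcript start. The Osmr window is not shown, because a coding transcript is annotated to start before it or near its beginning.
Il6st, chr13:112463820-112464069, + strand: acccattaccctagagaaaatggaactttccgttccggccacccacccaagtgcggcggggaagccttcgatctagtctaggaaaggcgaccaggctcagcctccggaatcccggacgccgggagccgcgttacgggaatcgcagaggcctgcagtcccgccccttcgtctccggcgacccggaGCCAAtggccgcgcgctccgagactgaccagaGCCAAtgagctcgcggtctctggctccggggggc
Lif, chr11:4257318-4257556, + strand: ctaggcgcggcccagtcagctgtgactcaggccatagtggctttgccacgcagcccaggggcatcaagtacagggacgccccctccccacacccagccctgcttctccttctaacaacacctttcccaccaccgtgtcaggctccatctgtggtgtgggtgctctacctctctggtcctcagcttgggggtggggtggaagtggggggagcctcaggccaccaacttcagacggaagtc
Il13ra1, chrX:36111858-36112107, + strand: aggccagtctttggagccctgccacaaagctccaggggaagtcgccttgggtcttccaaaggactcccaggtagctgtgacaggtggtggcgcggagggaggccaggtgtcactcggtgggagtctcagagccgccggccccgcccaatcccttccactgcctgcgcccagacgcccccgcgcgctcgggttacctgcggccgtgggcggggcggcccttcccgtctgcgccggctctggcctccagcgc
Il4ra, chr7:125552021-125552119, + strand: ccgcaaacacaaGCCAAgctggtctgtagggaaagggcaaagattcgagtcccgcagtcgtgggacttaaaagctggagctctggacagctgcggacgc
The Il6st sequence held 2 such arms and the Il4ra sequence 1. The Lif window held 1, in the bases after the start that are not shown, the Osmr window held 2, and the Il13ra1 window held none. These matches describe letters in a short window and do not show binding.

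Differences below are Nfib-null minus wild type on the scale log2(scaled RPKM + 1). Each column was first divided by a factor that sets the median ratio of 12511 genes whose mean reached 1 RPKM to equality, and higher or lower without further qualification means a difference of 2-fold or more. RPKM values are given as deposited. Among those 12511 genes 869 were higher (6.95%) and 747 lower (5.97%); 1800 were higher and 369 lower with the values as deposited, 1173 and 548 with equal sums, and 222 and 3117 with scaling to luminal epithelial markers. Without the minimum the shares of all 22609 genes were 3.87% and 3.42%. Nfib itself, the targeted gene, stood at 55.3 RPKM in Nfib-null glands and 33.7 RPKM in wild-type glands, and thus showed no loss of RNA where the deletion is labelled. The labels do not give the deleted part of the gene, and this value does not check which column is which. Beta-casein (Csn2), which marks lactating mammary epithelium, stood at 50689 and 143846 RPKM in Nfib-null and wild-type glands. From the smallest steps between values, about 33800000, 27000000 and 20500000 reads lay behind the Nfib-null column and about 17800000 and 14900000 behind the wild-type column; these depths are approximate, and as many steps were read as there are libraries.

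Of the 10 genes 3 (Osmr, Il13ra1 and Lif) were higher in the Nfib-null column and 1 (Il4ra) was lower, while the other 6 lay within 2-fold. Over all 22609 genes 3.87% were higher and 3.42% lower. The median difference of the 10 genes was 0.15, against 0.00 over all 22609 genes. Osm and Il6 lay below the minimum of 1 RPKM, where adding 1 before the logarithm keeps any difference small. Lif passed the minimum through its Nfib-null value alone, so that it could hardly have passed without differing. In RNA of whole tissue, fewer cells of a type and less RNA per cell cannot be told apart.

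**Figure D1:**
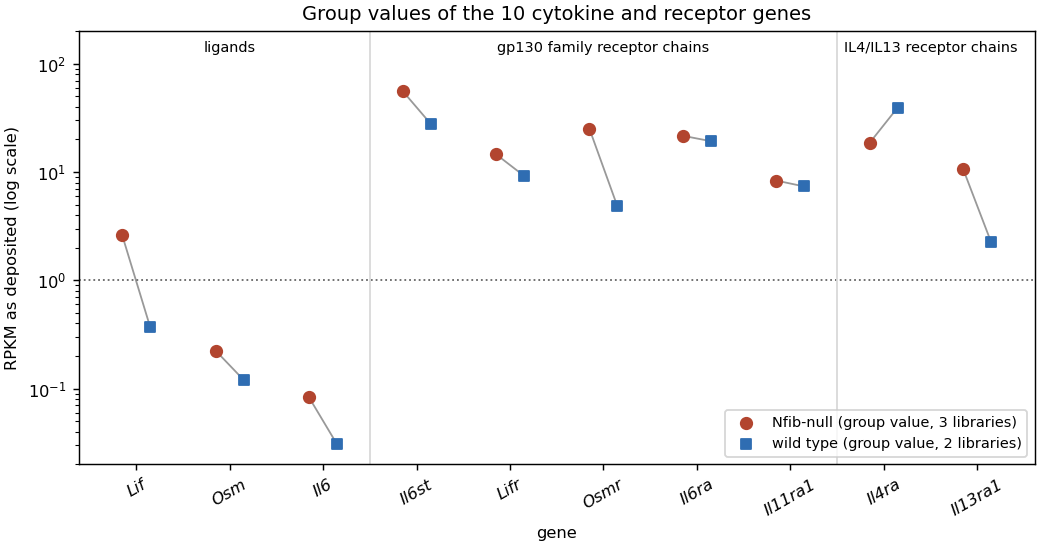
Deposited RPKM (log axis) of each gene in the Nfib-null column (circles, 3 libraries) and the wild-type column (squares, 2 libraries), 1 value a group without error; the dotted line marks 1 RPKM. Lif, Osmr and Il13ra1 show the steepest drops between circle and square, and Il4ra is the only gene whose square lies above its circle.

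Among the ligand genes Lif, Osm and Il6, Lif alone passed the minimum, through its Nfib-null value. Its level was 2.61 RPKM in Nfib-null glands and 0.368 RPKM in wild-type glands, a ratio of 7.08 as deposited and a log2 difference of 1.19. About 829 and 47 reads lay behind these values, which puts the 95% counting interval of the ratio at 5.27 to 9.71 (exact binomial). The interval covers counting error alone, and reads without molecular identifiers are not independent molecules.

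Osm and Il6 were close to the limit of detection in both columns. Osm stood at 0.224 RPKM in Nfib-null glands and 0.120 RPKM in wild-type glands, on about 41 and 9 reads, and the counting interval of its ratio of 1.86 ran from 0.875 to 4.28. Il6 stood at 0.0828 and 0.0305 RPKM in Nfib-null and wild-type glands, on about 6 and 1 reads, with a ratio of 2.71 and an interval from 0.292 to 111. No difference in either ligand was detectable at this depth.

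Osmr showed the largest difference of the 10 genes on this scale, although Lif had the larger ratio as deposited (7.08 against 5.21 for Osmr) and the larger difference with a pseudocount of 0.1 (2.17 against 1.95). The oncostatin M receptor gene stood at 25.2 RPKM in Nfib-null glands and 4.83 RPKM in wild-type glands, a log2 difference of 1.80 that exceeded those of 98.9% of the 12511 genes above the minimum. Among the 10 genes its level ranked 2nd in the Nfib-null column and 6th in the wild-type column. OSMR also pairs with the chain encoded by Il31ra to receive IL31; Il31ra stood at 0.2314 and 0.2501 RPKM in Nfib-null and wild-type glands, and Il31 was listed at 0 in both.

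The common chain gene and the LIF receptor gene differed less than Osmr. Il6st was the most abundant of the 10 genes in the Nfib-null column, at 56.3 RPKM against 28.0 RPKM in wild-type glands, where it came after Il4ra. Its difference of 0.58 was within 2-fold, was 0.98 with the values as deposited, and turned negative with scaling to luminal, granulocyte and mast cell, macrophage, fibroblast or adipocyte markers, and was 2.27 relative to lymphocyte markers. Lifr stood at 14.6 RPKM in Nfib-null glands and 9.23 RPKM in wild-type glands (log2 0.23), with the same change of sign under those 5 scalings and a difference of 1.82 relative to lymphocyte markers.

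The binding chains for IL6 and IL11 had nearly the same RPKM in both columns. Il6ra stood at 21.7 RPKM in Nfib-null glands and 19.3 RPKM in wild-type glands (log2 −0.23), and Il11ra1 at 8.35 and 7.36 RPKM (log2 −0.20). These differences depended on the scaling. They turned positive with the values as deposited, at 0.16 each, and reached 1.42 for Il6ra and 1.33 for Il11ra1 relative to lymphocyte markers. Relative to granulocyte and mast cell, macrophage, fibroblast and adipocyte markers both genes were at least 2-fold lower, from −1.18 to −2.07 for Il6ra and from −1.09 to −1.90 for Il11ra1. Il11ra1 is the less certain of these values. Its near-identical copy Il11ra2 was listed at 0 in both columns, and how reads shared by the copies were counted is not given. In addition, 5 genes of the table overlap Il11ra1 in the GENCODE M21 annotation.

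**Figure D2:**
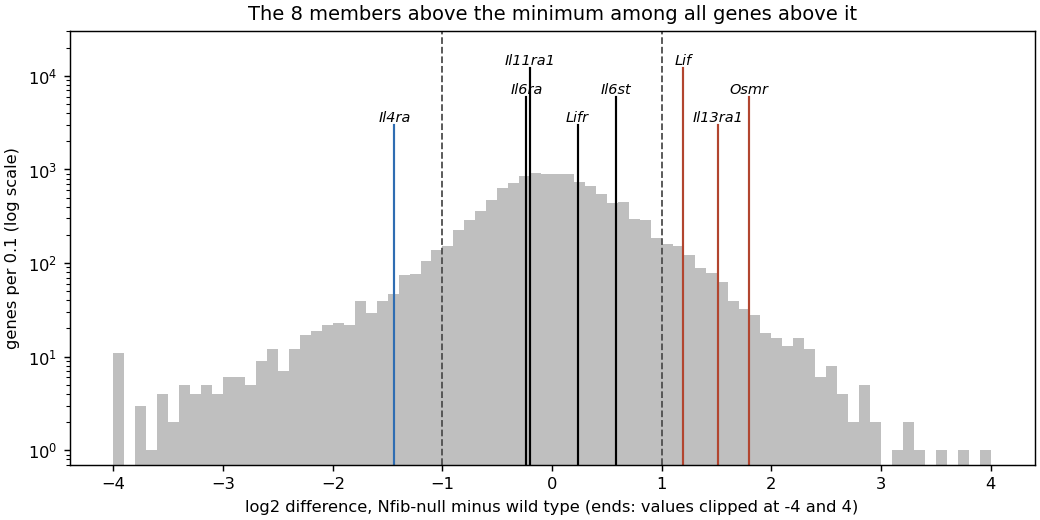
Number of genes (log axis) by log2 difference, Nfib-null minus wild type, for the 12511 genes above the minimum (grey, bins of 0.1), with lines at the 8 of the 10 genes above it; dashed lines mark 2-fold. Osmr, Il13ra1 and Lif lie right of the upper dashed line, Il4ra left of the lower one, and Lifr, Il6st, Il6ra and Il11ra1 between them.

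The chains of the IL4 and IL13 receptor went opposite ways. Il4ra stood at 18.6 RPKM in Nfib-null glands and 39.5 RPKM in wild-type glands, where it was the most abundant of the 10 genes. Its log2 difference was −1.44, and 2.66% of genes above the minimum had a lower one. An antisense gene overlaps each of Il4ra and Il6ra in GENCODE M21, and without a stated strand setting its reads cannot be told apart from theirs. Il13ra1 stood at 10.7 RPKM in Nfib-null glands and 2.25 RPKM in wild-type glands (log2 1.51), on about 3222 and 272 reads. The common gamma chain gene Il2rg, the other partner of the IL4 receptor, stood at 11.0 and 10.5 RPKM in Nfib-null and wild-type glands (log2 −0.32). Of these other type 2 genes (Il2rg, Il4, Il13 and Il13ra2) 1 of 4 passed the minimum and 0 were beyond 2-fold. Il4, Il13 and Il13ra2 could hardly have been, because adding 1 before the logarithm keeps differences small at such low levels. The ligand genes were near 0: Il4 at 0.273 and 0.0341 RPKM and Il13 at 0.0524 and 0.0232 RPKM in Nfib-null and wild-type glands. The decoy chain gene Il13ra2 stood at 0.0413 RPKM in Nfib-null glands and 0.0735 RPKM in wild-type glands.

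Ratios between chains within a column do not depend on dividing that column by any factor. Il13ra1 stood at 0.573 of the RPKM of Il4ra in the Nfib-null column and at 0.0570 in the wild-type column, a 10.1-fold difference in their proportion. The RPKM of Osmr exceeded that of Lifr by a ratio of 1.72 in the Nfib-null column, whereas in the wild-type column the ratio was 0.523. The order of these partners of gp130 by RPKM was thus exchanged. Which gene has the higher RPKM within a column also depends on the transcript lengths used, which are not given. Annotated coding transcripts of Lifr run from 2844 to 9655 bases, so an exchange in transcript number is not shown. Relative to Il6st, Osmr stood at 0.447 in the Nfib-null column and 0.172 in the wild-type column. Cntfr, the binding chain of another gp130 family receptor, stood at 0.0647 of Il6st in the Nfib-null column and 0.0232 in the wild-type column. The other partners among the 10 genes were lower relative to Il6st in the Nfib-null column: Lifr at 0.260 against 0.330 in the wild type, Il6ra at 0.385 against 0.689, and Il11ra1 at 0.148 against 0.263. No replicate spread is available for these proportions.

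**Figure D3:**
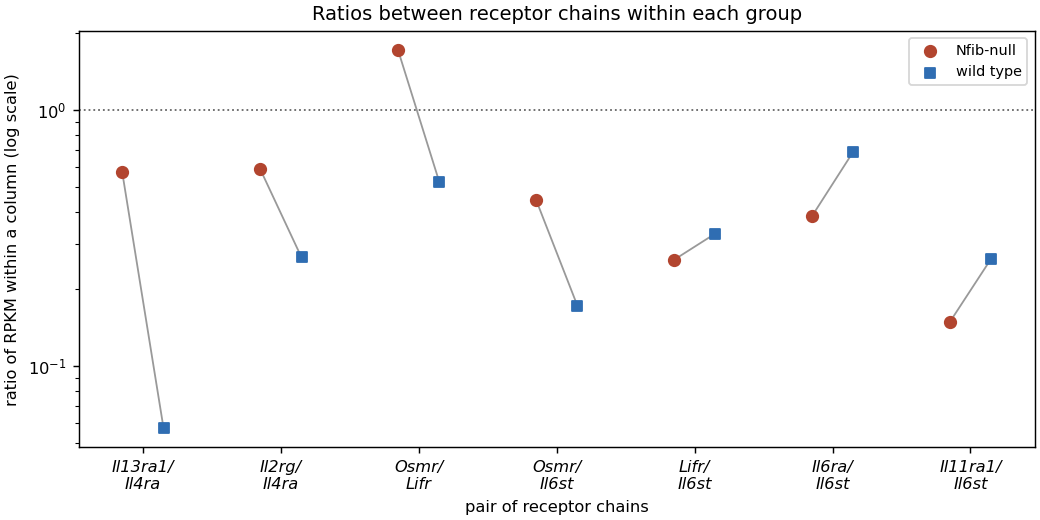
Ratio of RPKM between pairs of receptor chain genes (log axis) within the Nfib-null column (circles) and the wild-type column (squares); the dotted line marks equal RPKM. Il13ra1/Il4ra is the pair farthest apart between the columns (0.573 and 0.0570), and Osmr/Lifr is the pair that crosses the line.

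The order of the 10 genes by RPKM thus differed between the columns at several places. In the Nfib-null column it ran Il6st, Osmr, Il6ra, Il4ra, Lifr, Il13ra1, Il11ra1, Lif, Osm and Il6, and in the wild-type column Il4ra, Il6st, Il6ra, Lifr, Il11ra1, Osmr, Il13ra1, Lif, Osm and Il6. Without a spread, neighbours in these orders cannot be said to differ.

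Marker genes of several cell types moved between the columns alongside these genes. Of 10 adipocyte markers 9 were higher by 2-fold or more in Nfib-null glands and 0 lower, with summed RPKM of 10173 and 2085 in Nfib-null and wild-type glands and a median log2 difference of 1.91. Of 8 fibroblast markers 7 were higher (summed RPKM 1624 and 445, median 1.44), as were 7 of 8 macrophage markers (432 and 126, median 1.27), in each case with 0 lower. Luminal markers had 4 of 12 higher and 0 lower (1937 and 941, median 0.71). Their differences ran from −0.86 (Ehf) to 2.16 (Cldn4) and 3 were negative, so a scale set to this list depends on the markers it holds. Basal and myoepithelial markers had 0 of 8 beyond 2-fold (1091 and 660, median 0.23), and endothelial markers 0 of 7 (174 and 126, median −0.01). Of 8 lymphocyte markers 7 passed the minimum and 5 were lower (8.66 and 21.5, median of the 8 −1.15). Of 8 granulocyte and mast cell markers 7 were in the table and 6 passed the minimum, and 1, Tpsb2, was higher (65.1 and 28.2, median of the 7 0.78). No marker was listed at 0 in either column. The part of these cell types in the differences of Osmr, Il13ra1, Lif and Il4ra was not tested.

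The members were also scaled to each of the 8 marker lists, setting the list's median ratio to equality. Relative to basal and myoepithelial and to endothelial markers, the 3 higher genes and Il4ra all stayed beyond 2-fold. Relative to luminal markers Osmr was still more than 2-fold higher (log2 1.15), while Il13ra1 (0.93) and Lif (0.84) came within 2-fold. Relative to granulocyte and mast cell markers the differences were 0.89 for Osmr, 0.69 for Il13ra1 and 0.70 for Lif, relative to macrophage markers 0.56, 0.39 and 0.52, and relative to fibroblast markers 0.47, 0.32 and 0.47. Relative to adipocyte markers they were 0.03, −0.083 and 0.24, and relative to lymphocyte markers 3.33, 2.89 and 2.06.

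The lower level of Il4ra likewise depended on the list. Relative to lymphocyte markers, which were themselves lower in Nfib-null glands, its difference was 0.23, so that its direction turned and it lay within 2-fold. Relative to the other 7 lists it was at least 2-fold lower, between −3.28 (adipocyte) and −1.43 (endothelial), and so it was with the values as deposited (−1.04). With a pseudocount of 5, Lif (0.42) and Il13ra1 (0.91) came within 2-fold and Osmr and Il4ra did not.

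**Figure D4:**
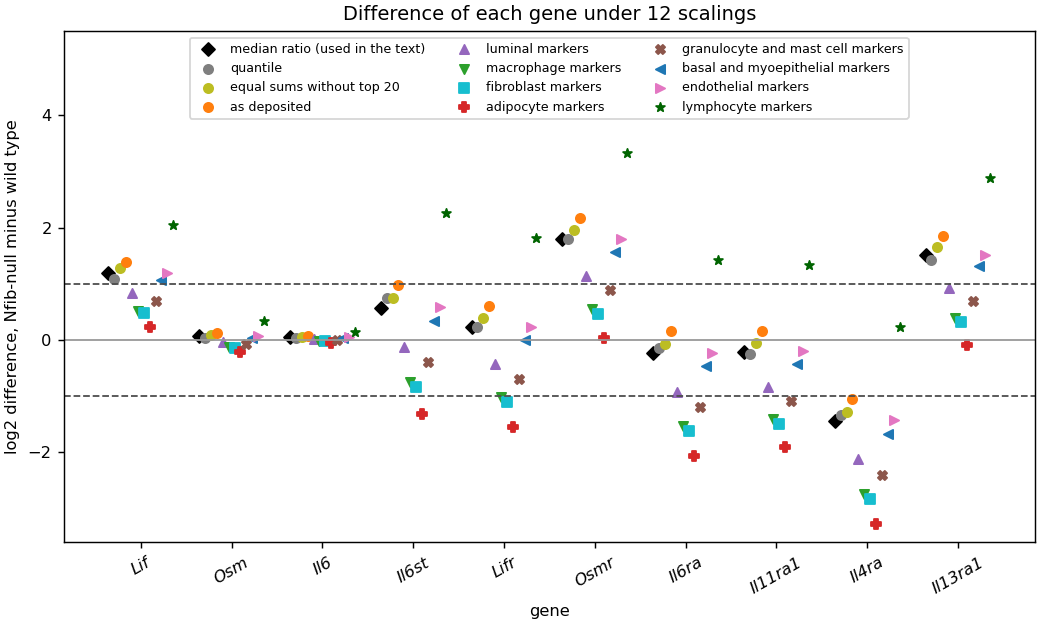
Log2 difference, Nfib-null minus wild type, of each of the 10 genes under 12 ways of scaling the columns; dashed lines mark 2-fold. Of the 12 points of Il4ra, that relative to lymphocyte markers (0.23) lies above −1 and the others below it, and the points of Osmr run between 3.33 relative to lymphocyte markers and 0.03 relative to adipocyte markers.

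Other ligands and receptor chains of the gp130 family were mostly low. Of 9 further ligand genes 3 passed the minimum and 0 were beyond 2-fold. Those below the minimum could hardly reach 2-fold with 1 added before the logarithm. The median difference was 0.31 over the 3 that passed and 0.09 over all 9. Ctf1, cardiotrophin-1, had the highest mean, at 5.18 RPKM in Nfib-null glands and 2.96 RPKM in wild-type glands (log2 0.31). Of 4 further receptor chain genes 2 passed the minimum and 1 was higher: Cntfr, the binding chain for ciliary neurotrophic factor, which works with LIFR and gp130, at 3.64 RPKM in Nfib-null glands and 0.650 RPKM in wild-type glands (log2 1.25). Cntfr is a coding neighbour of Il11ra1 on chromosome 4 in GENCODE M21. Like Lif, it passed the minimum through its Nfib-null value alone, and it came within 2-fold when the pseudocount was 5 (0.50) and when luminal markers set the scale (0.82).

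Genes of signal transduction and receptor shedding stayed within 2-fold. Of 15 listed genes, which comprise the Janus kinase genes, Stat3, Stat6, adaptors, phosphatases and the membrane proteases Adam10 and Adam17, 0 were beyond 2-fold, with a median of 0.08 and a range from −0.30 to 0.95. Stat3 stood at the upper end, at 104 RPKM in Nfib-null glands and 40.1 RPKM in wild-type glands (log2 0.95). Its difference passed 2-fold with the values as deposited (1.36), quantile normalization (1.19) and equal sums (1.12). With scaling to luminal markers the Stat3 difference fell to 0.25. Stat6, at 42.3 and 29.4 RPKM in Nfib-null and wild-type glands, differed by 0.11. Of 8 feedback inhibitor genes 1 was higher and 1 lower, against 6.95% and 5.97% of all genes above the minimum. The higher one was Socs3, the STAT3-induced inhibitor that binds gp130, at 14.96 RPKM in Nfib-null glands and 3.95 RPKM in wild-type glands (log2 1.33). The lower one was Cish (log2 −1.23), an inhibitor induced by STAT5. Cish came within 2-fold with the values as deposited, and Socs3 did so relative to luminal markers (0.70) and with a pseudocount of 5 (0.91).

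Genes known as STAT3 targets had 7 of 20 higher in Nfib-null glands and 2 lower, with a median of 0.61, against 6.95% higher and 5.97% lower over all genes above the minimum. The largest differences were in Cd14, a receptor for lipopolysaccharide (2.68), Hp, the plasma protein haptoglobin (2.53), Igfbp5, which binds insulin-like growth factors (2.52), and Junb, a subunit of the AP-1 transcription factor (2.39). Hp stood at 235 RPKM in Nfib-null glands and 29.9 RPKM in wild-type glands, and Junb at 44.0 and 5.60 RPKM. The lower genes were Timp1, an inhibitor of matrix metalloproteinases (5.60 and 11.4 RPKM in Nfib-null and wild-type glands, log2 −1.27), and the kinase gene Pim1 (24.5 and 41.4 RPKM, −1.13). Lcn2, an iron-binding defence protein and the list's most abundant gene, stood at 2499 RPKM in Nfib-null glands and 1624 RPKM in wild-type glands (log2 0.21). With scaling to luminal markers 4 were higher and 3 lower, and with the values as deposited 10 and 0. The part in these counts of the cell types whose markers were higher as well was not tested.

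Of 13 genes known as STAT6 targets 9 passed the minimum, and 6 were higher in the Nfib-null column and 0 lower. Over all genes above the minimum 6.95% were higher and 5.97% lower. The median difference was 1.27 over the 9 genes of this list and 0.47 over all 13. Ccl24 and Egr2 passed the minimum through their Nfib-null values alone (Egr2 at 2.47 and 0.474 RPKM in Nfib-null and wild-type glands). Ccl22, at 0.621 RPKM in Nfib-null glands and 1.57 RPKM in wild-type glands (log2 −0.87), did not reach it. Retnla, a secreted protein of alternatively activated mouse macrophages, stood at 350 RPKM in Nfib-null glands and 62.9 RPKM in wild-type glands (log2 2.05). Clec10a, a lectin of macrophages and dendritic cells, stood at 26.8 and 5.47 RPKM (1.73), and the eosinophil chemokine genes Ccl24 and Ccl11 at 5.12 and 0.903 RPKM (1.41) and at 39.2 and 11.6 RPKM (1.28), each in Nfib-null and wild-type glands. Most of these genes are expressed by macrophages or stromal cells, whose markers were higher as well, and 2 were higher relative to luminal markers and 3 with a pseudocount of 5. The part of those cells in this count was not tested. Gata3, the luminal transcription factor on this list, stood at 47.5 RPKM in Nfib-null glands and 25.6 RPKM in wild-type glands (log2 0.47).

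**Figure D5:**
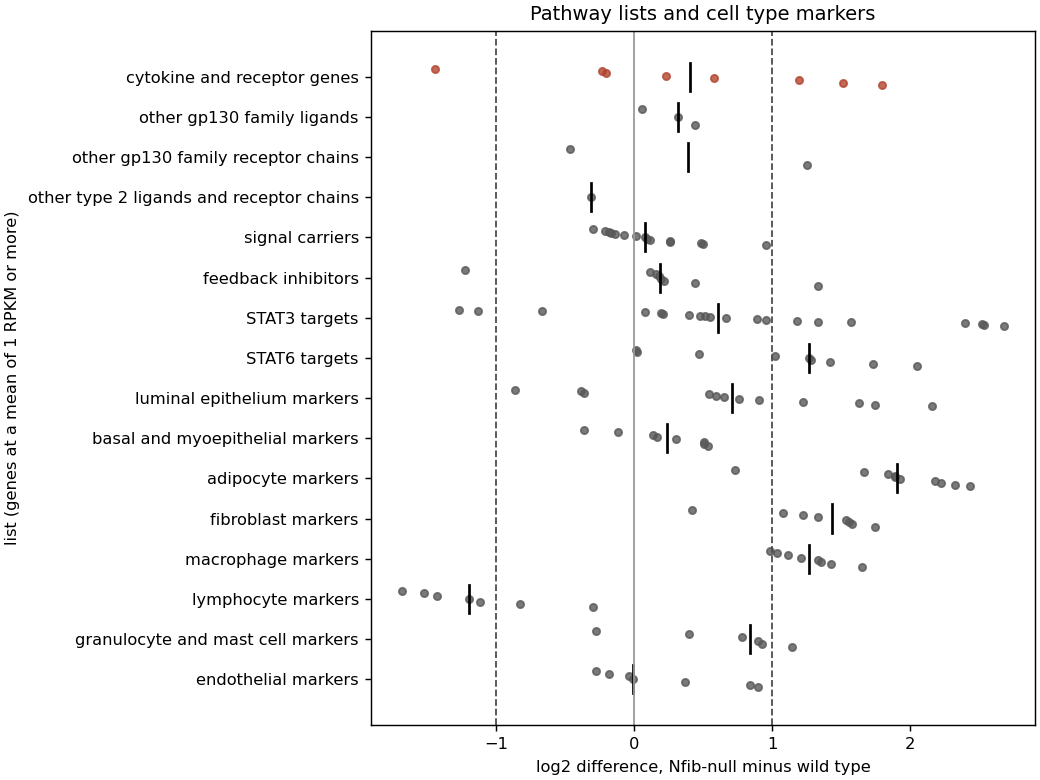
Log2 difference, Nfib-null minus wild type, of each gene at a mean of 1 RPKM or more (points), by list, with the list median (black bar); dashed lines mark 2-fold. Medians of the adipocyte, fibroblast, macrophage and STAT6 target lists lie right of the upper dashed line, and that of the lymphocyte markers left of the lower one.

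Genes next to the members on the chromosome had differences of other sizes. Osmr and Lifr are adjacent coding genes on chromosome 15 in GENCODE M21, with log2 differences of 1.80 and 0.23. Lif and Osm are adjacent on chromosome 11 (1.19 and 0.07). On their other sides, Rictor next to Osmr differed by −0.12, Egflam next to Lifr by 0.57 and Hormad2 next to Lif by 0.02. Hormad2 stood at 0.0776 RPKM in Nfib-null glands and 0.0459 RPKM in wild-type glands. At levels as low as those of Osm and Hormad2, adding 1 before the logarithm keeps any difference small, so these neighbours cannot be compared with Lif. Il4ra lies between Nsmce1, at 19.6 RPKM in Nfib-null glands and 20.3 RPKM in wild-type glands (log2 −0.44), and Il21r, at 0.921 and 1.91 RPKM (log2 −0.83). Il13ra1 on the X chromosome lies between Dock11, at 4.49 RPKM in Nfib-null glands and 1.86 RPKM in wild-type glands (log2 0.64), and Zcchc12, at 0.0257 and 0.0542 RPKM (log2 −0.06).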

How the data were processed

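Poly(A) libraries of mammary gland, 3 Nfib-null and 2 wild-type, were made with the TruSeq kit and sequenced on a HiSeq instrument, per the labels' protocols. Per the submitters' processing notes, CASAVA and TopHat were used with mm9. Not given in the sources used here are the counter, the annotation, the strand setting and the denominator of the RPKM. The authors deposited 1 RPKM value a gene and group, per the file headers. In the Nfib-null column 84.4% of the 12205 values with 10 decimals ended in the repeating digits that division by 3 leaves. In the wild-type column 0 of 67 such values did. The Nfib-null group is the one with 3 libraries.

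Columns were divided by median-ratio factors of 1.15 (Nfib-null) and 0.867 (wild type) over the 12511 genes whose library-weighted mean reached 1 RPKM, and differences of log2(scaled RPKM + 1) were taken with Python 3.11.15, pandas 2.3.3 and numpy 2.4.6. Wap and Glycam1 hold the same wild-type value exactly, and whether values of that group were normalised by rank was not tested. The calculation was tested on simulated data. The limma fit that values per library would have allowed was not possible. Members and gene lists were chosen with earlier results of these data known. A gene of the signalling list is not reported here. All 10 members are named, and of each pathway list the genes beyond 2-fold, up to 4 a direction, and the most abundant. Egr2 and Ccl22 of the STAT6 list are named besides for the effect of the minimum. Read numbers used step depths and GENCODE M21 transcript lengths (median of coding transcripts matched to RefSeq). Intervals came from SciPy 1.17.1. Alternatives covered scaling, pseudocount, minimum and fold limit. Scaling to marker lists other than the luminal one was added after seeing the data.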

Additional observations from a re-analysis of the deposited data

How the results depend on the processing

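No paired analysis was possible because the table holds 1 column a group, and leaving out libraries was not possible for the same reason. Il4ra turned to 0.23 with scaling to lymphocyte markers and was at least 2-fold lower, between −3.28 and −1.04, under the other 14 alternatives that change the values. The count of members higher, 3, was 1 with scaling to luminal markers and 1 with a pseudocount of 5. With a 4-fold limit 0 were higher and 0 lower on the scale with 1 added to the scaled RPKM. Without that addition the ratio of scaled values was 5.32 for Lif, 3.92 for Osmr and 3.57 for Il13ra1. With fibroblast, adipocyte and macrophage marker scaling 0 were higher and 4, 5 and 4 lower, with granulocyte and mast cell marker scaling 0 and 3, and with lymphocyte marker scaling 7 and 0; Il13ra1 turned to −0.083 with the adipocyte list. Scaling to a list that was higher or lower shifts every gene the other way by construction. Over all genes 1800 were higher and 369 lower as deposited, 222 and 3117 with luminal scaling, 346 and 444 with a pseudocount of 5, 2145 and 1833 at 1.5-fold, and 91 and 154 at 4-fold, and 1313 were higher with a pseudocount of 0.1. The median of all genes lay at 0.35 as deposited, 0.15 with equal sums and −0.61 with luminal scaling. Of 320 other values under alternatives 248 stayed on the same side of the fold limit, or for counts within 1.5 times. These include differences within 2-fold that changed sign, such as those of Lifr, Il6ra and Il11ra1 under some scalings. Depth limits Il6 and Osm.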

Other observations

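Other interleukin receptor genes, taken by symbol after the values had been seen, mostly lay within 2-fold. Of 37 such genes that are not among the 10 described above, 22 passed the minimum and 17 of these lay within 2-fold, with a median log2 difference of 0.08. In Nfib-null glands 3 were higher and 2 lower, against 6.95% and 5.97% of all genes above the minimum. Il28ra, the chain that binds interferon lambda, stood at 11.2 RPKM in Nfib-null glands and 1.72 RPKM in wild-type glands (1.84). Il17re, a receptor chain for IL17C in epithelium, stood at 15.1 and 3.27 RPKM (1.56), and Il1r2, a decoy receptor for IL1, at 6.34 and 1.14 RPKM (1.49), each in Nfib-null and wild-type glands. The lower genes were the IL18 receptor chains Il18rap, at 0.777 RPKM in Nfib-null glands and 4.30 RPKM in wild-type glands (−1.83), and Il18r1, at 3.15 and 6.75 RPKM (−1.23), of which Il18r1 came within 2-fold with the values as deposited (−0.90).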
